A study of Mus musculus with 2 samples.

Results

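The 4 genes described here are Fga, Fgb and Fgg, which encode the 3 chains of fibrinogen, and Fgl1, which encodes fibrinogen-like protein 1. They were found by gene symbol among 69594 endogenous features, and all 4 were listed, with 7 transcripts between them. Levels were read in total RNA from the livers of 2 newborn mice of the B6NCrl strain, pup 1 (replicate 1) and pup 3 (replicate 2), on postnatal day 0. Both livers belong to 1 group with no treatment and no contrast, and their sex was not collected. Per the labels, each library was made by a SmartSeq protocol from 13 pg of RNA longer than 200 nt, 1 cell-equivalent, and spike-in RNAs went into each. The material was bulk tissue RNA, so each value averages over all cells of the liver. Although the labels name 2 pups, their donor field is identical, and the spread between libraries can be technical as well as animal to animal. Values are levels, with mean ± SD over n = 2, and no test between conditions was possible.

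Fibrinogen is the soluble precursor of the fibrin clot. Each molecule joins paired Aα, Bβ and γ chains, made by hepatocytes and linked by disulfide bonds in the endoplasmic reticulum before secretion. Thrombin removes short peptides from the Aα and Bβ chains, which lets fibrin polymerise, while the γ chain carries the main contact for the platelet integrin. In adult liver the chain genes are known as acute phase genes that respond to interleukin 6 and glucocorticoids. Fgl1 is a hepatocyte protein with a fibrinogen-like domain but is not a chain of fibrinogen, and it is known as a hepatocyte mitogen and as a ligand of the immune receptor Lag3.

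The 3 chain genes lie next to each other on chromosome 3 within 42.1 kb (GRCm38, the assembly also called mm10, with GENCODE M21 coordinates). Fgg (ENSMUSG00000033860.9, 83007724 to 83015049) and Fga (ENSMUSG00000028001.12, 83026076 to 83033627) lie on the plus strand, 11026 bases apart. Fgb (ENSMUSG00000033831.5, 83040141 to 83049863) lies on the minus strand, and its 3′ end faces that of Fga across 6513 bases. Fgl1 (ENSMUSG00000031594.9) lies apart from them on chromosome 8, minus strand, 41191434 to 41215156.

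Fga and Fgg each had a pair of listed coding transcripts that differ at the end of the reading frame, and the isoform results below turn on these ends. They are shown from the GENCODE M21 transcripts with the last 30 shared coding bases in lower case and the coding bases of that transcript alone in capitals, stop codon included. For Fga-202 the first 60 of 710 such bases are shown. The stretches start at chr3:83014278 for Fgg and at chr3:83031950 for Fga, on the plus strand, with introns left out.
Fgg-201: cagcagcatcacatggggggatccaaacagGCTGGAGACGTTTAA
Fgg-202: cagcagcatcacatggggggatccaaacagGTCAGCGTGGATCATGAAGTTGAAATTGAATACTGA
Fga-201: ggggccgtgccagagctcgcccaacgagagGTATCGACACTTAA
Fga-202: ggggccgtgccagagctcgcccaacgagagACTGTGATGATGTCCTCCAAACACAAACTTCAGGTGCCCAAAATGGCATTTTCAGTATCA

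Fgg-201 splices from exon 9 to exon 10, whereas Fgg-202 has 9 exons and reads on past the end of exon 9 into the intron. Its capitals are 36 bases long and those of Fgg-201 15, so the coded chains have 443 and 436 residues. The human γ′ chain arises in the same way. Fga-202 adds a sixth exon to the 5 of Fga-201 and codes for 789 residues, against 557 for Fga-201. The human counterpart of that longer form is the αE chain, which ends in an extra globular domain.

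The promoter windows of the clustered genes are shown because 3 neighbours were read at similar, high levels. Each is the 250 bases before the RefSeq start (GRCm38.p6), written in the direction of the gene: chr3:83007474-83007723 for Fgg, chr3:83025903-83026152 for Fga, and chr3:83049864-83050113 on the minus strand for Fgb. Capitals mark letters that matched a searched motif on either strand.
Fgg promoter: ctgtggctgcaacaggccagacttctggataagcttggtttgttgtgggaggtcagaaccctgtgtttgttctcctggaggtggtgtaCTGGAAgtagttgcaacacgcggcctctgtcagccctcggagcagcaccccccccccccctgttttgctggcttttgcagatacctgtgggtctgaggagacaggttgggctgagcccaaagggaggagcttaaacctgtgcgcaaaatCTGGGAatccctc
Fga promoter: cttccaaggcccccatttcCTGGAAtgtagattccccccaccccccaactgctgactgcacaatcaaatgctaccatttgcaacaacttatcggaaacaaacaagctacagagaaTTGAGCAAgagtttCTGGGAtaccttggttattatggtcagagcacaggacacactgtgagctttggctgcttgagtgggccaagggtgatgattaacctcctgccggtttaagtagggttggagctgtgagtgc
Fgb promoter: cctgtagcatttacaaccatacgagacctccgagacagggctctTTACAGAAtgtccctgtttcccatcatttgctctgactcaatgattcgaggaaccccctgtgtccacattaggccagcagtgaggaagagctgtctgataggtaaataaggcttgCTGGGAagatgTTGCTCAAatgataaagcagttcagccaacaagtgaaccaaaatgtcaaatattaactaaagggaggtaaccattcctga

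Letters of known elements were searched on both strands: an interleukin 6 response core written CTGGGA, its variant, C/EBP and the TATA box. The first of these occurred in all 3 windows, and in 27.0% of the 32851 promoter windows of the same length. It ended 8 bases before the start of Fgg, 86 before that of Fgb and 116 before that of Fga. The variant of this core, CTGGAA, was found in the Fgg and Fga windows and in 21.5% of all windows. The C/EBP letters, TTNNGNAA, were found in the Fga window and at 2 places in the Fgb window, and in 36.8% of all windows. The TATA box letters, TATAAA, had no match in these 3 windows, and 12.4% of all windows hold them. A match is a description of letters, not a bound site. Letters of HNF1, another factor known from fibrinogen promoters, were planned but not searched, so none are marked. In GENCODE, transcript Fga-201 starts 77 bases before the RefSeq start, inside the window shown.

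All 3 chains were among the most abundant transcripts of the newborn liver. Levels are TPM, the unit of transcript abundance that corrects for transcript length, over endogenous features. Fgg, the γ chain gene, had 9051 TPM in pup 1 against 5843 TPM in pup 3 (mean 7447 ± 2268). Fga, the Aα chain gene, had 6318 TPM in pup 1 against 6221 TPM in pup 3 (mean 6269 ± 68.5). Fgb, the Bβ chain gene, had 7199 TPM in pup 1 against 5155 TPM in pup 3 (mean 6177 ± 1445). Fga was thus nearly level between the pups, whereas Fgb and Fgg were higher in pup 1. Fgl1 stood several-fold lower, at 711 TPM in pup 1 against 1069 TPM in pup 3 (mean 890 ± 253), and was the member that was higher in pup 3.

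**Figure D1:**
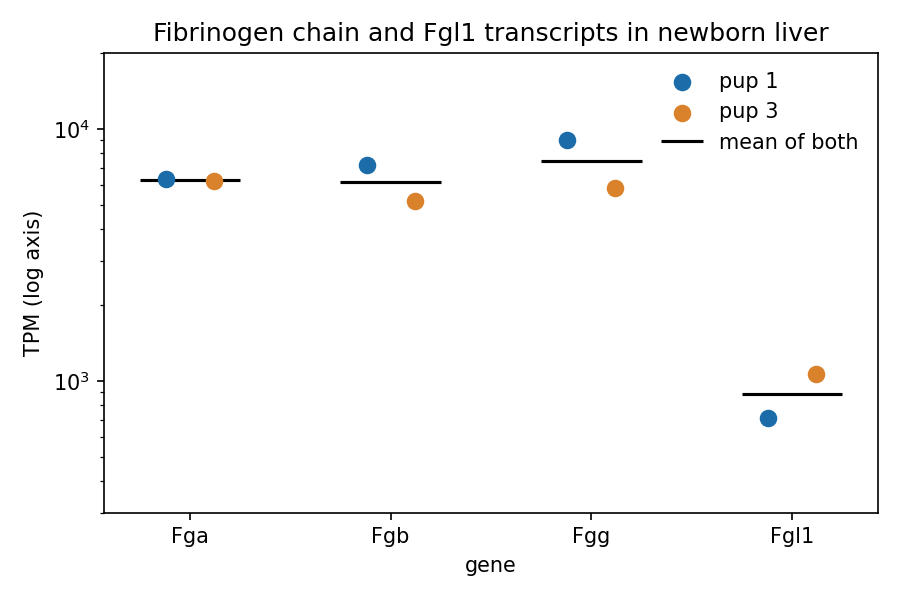
Levels of the fibrinogen chain genes and Fgl1 (TPM, log axis) in each of the 2 libraries, with the mean as a line. Over both libraries the chains span 5155 to 9051 TPM and Fgl1 spans 711 to 1069 TPM.

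Among endogenous features ranked by TPM, Fgg stood at place 16 in pup 1 and place 18 in pup 3. Fga stood at place 21 in pup 1 and 16 in pup 3, and Fgb at place 19 in pup 1 and 23 in pup 3. Fgl1 stood at place 154 in pup 1 and place 100 in pup 3. Summed, the 3 chains took 2.26% of TPM in pup 1 and 1.72% in pup 3 (mean 1.99 ± 0.378%). In expected counts, which are estimated reads with no correction for length, they took 4.12% in pup 1 (exact binomial 95% interval 4.117 to 4.127%) and 3.40% in pup 3 (3.393 to 3.405%). The intervals hold counting error alone: without molecular identifiers, PCR copies of 1 molecule count as separate reads.

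The order of the 3 chains did not hold between the animals. In pup 1 the order was Fgg, Fgb, Fga, and in pup 3 it was Fga, Fgg, Fgb. As shares of the summed chain TPM, Fga made up 28.0% in pup 1 and 36.1% in pup 3, Fgb 31.9% in pup 1 and 29.9% in pup 3, and Fgg 40.1% in pup 1 and 33.9% in pup 3. The mean shares were 32.1 ± 5.75% for Fga, 30.9 ± 1.39% for Fgb and 37.0 ± 4.36% for Fgg. Gaps between neighbours in the order of mean levels were set against the wider SD of each pair. The gap in means between Fga and Fgb was smaller than the SD of Fgb, and that between Fgg and Fga smaller than the SD of Fgg. Both gaps were larger than the SD of Fga, 68.5 TPM. Fgl1 lay apart from all 3 chains in both libraries.

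Ratios taken inside a library need no scaling between libraries. The TPM ratio of Fgg to Fgb was 1.26 in pup 1 and 1.13 in pup 3 (mean 1.20 ± 0.0875). The ratio of Fga to Fgb was 0.878 in pup 1 and 1.21 in pup 3 (mean 1.04 ± 0.233), and that of Fga to Fgg was 0.698 in pup 1 and 1.06 in pup 3 (mean 0.881 ± 0.259). The ratio of Fgg to Fgb had the smallest SD of the 3. Set against albumin (Alb), the main plasma protein of hepatocytes, Fgg amounted to 62.2% of the Alb TPM in pup 1 and 33.4% in pup 3, Fgb to 49.5% in pup 1 and 29.5% in pup 3, and Fga to 43.4% in pup 1 and 35.6% in pup 3. Fgl1 amounted to 4.88% of Alb in pup 1 and 6.12% in pup 3. As a percent of the 3 chains summed, Fgl1 had 3.15% in pup 1 and 6.21% in pup 3.

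The level of Fgb depends on where its transcript is taken to end. The tables list 1 Fgb transcript of 3810 nt, of which 1443 nt are coding. RefSeq on the same assembly ends the gene at 83042246, which is 2105 bases short of the GENCODE end at 83040141 and leaves a transcript of 1705 nt. With that shorter length the same counts gave Fgb 16479 TPM in pup 1 against 11832 TPM in pup 3 (mean 14155 ± 3286). These counts include any from the 2105 bases past the RefSeq end. The Fgb values are therefore upper limits for the shorter form, and a rise was fixed in advance. With all counts kept, the ratio of Fgg to Fgb was 0.517 ± 0.0379 and that of Fga to Fgb 0.451 ± 0.101. Both ratios are lower limits, and on these values Fgb led the chains in both libraries. With coding lengths for all 4 genes, again with all counts kept, the ratios were 0.574 ± 0.0421 for Fgg to Fgb and 0.493 ± 0.112 for Fga to Fgb. Before any correction for length Fgb also held the most counts, with 1115259 in pup 1 and 547956 in pup 3. Fgg had 605452 counts in pup 1 and 268135 in pup 3, Fga 538759 in pup 1 and 366617 in pup 3, and Fgl1 30449 in pup 1 and 31392 in pup 3. Coverage along the transcript is not part of these tables, so which end the liver used was not tested. The mean ratio of Fga to Fgg was 0.868 ± 0.260 with coding lengths and 0.745 with the length of the longest coding transcript. From counts with no division by length this mean was 1.13, on the other side of 1. The libraries differed: Fga was below Fgg in pup 1 and above it in pup 3, both in counts and in TPM with deposited lengths.

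**Figure D2:**
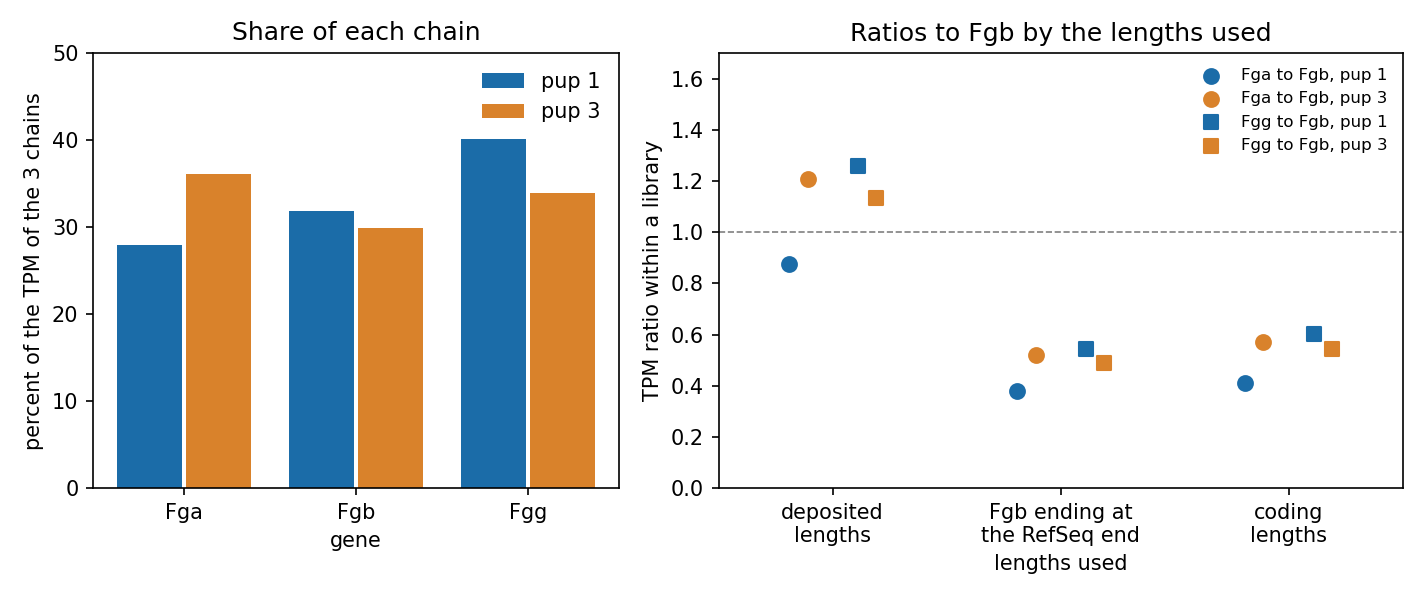
Left, each chain's share of the summed TPM of Fga, Fgb and Fgg (percent) in both libraries; right, TPM ratios of Fga (circles) and Fgg (squares) to Fgb within each library, by the transcript lengths used. The ratios lie between 0.878 and 1.26 with deposited lengths. With a shorter Fgb and all counts kept they lie under 1 (dashed line) in both libraries.

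The minor isoforms of Fgg and Fga held similar shares in both livers. Fgg-202, the form that reads into the last intron, held 13.9% of Fgg TPM in pup 1 and 13.2% in pup 3 (mean 13.6 ± 0.460%). Its level was 1257 TPM in pup 1 against 773 TPM in pup 3, and that of Fgg-201 was 7794 TPM in pup 1 against 5070 TPM in pup 3, so both forms were higher in pup 1 by like factors (1.63-fold and 1.54-fold). Fga-202, the longer form, held 11.6% of Fga TPM in pup 1 and 14.6% in pup 3 (mean 13.1 ± 2.07%). On the TPM scale the forms differed in opposite directions, while their shares need no scaling between libraries. Fga-202 had 735 TPM in pup 1 against 907 TPM in pup 3, whereas Fga-201 had 5582 TPM in pup 1 against 5314 TPM in pup 3.

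Reads that fit both forms are divided by estimation, and the deposited posterior SD gives the error of that division. It was 0.0833% of the Fga counts in pup 1 and 0.112% in pup 3, and 0.114% of the Fgg counts in pup 1 and 0.167% in pup 3, under the gaps between the pups of 2.93 percentage points for Fga and 0.65 points for Fgg. It covers neither uneven coverage nor PCR. The annotated Fga-202 starts at the first coding base, chr3:83026215, so reads of the leader can only be assigned to Fga-201. Likewise Fgg-201 starts at chr3:83007724 and Fgg-202 at chr3:83007861, so reads before the later start fit Fgg-201 and not Fgg-202. Reads of unspliced Fgg RNA in the last intron would also fit Fgg-202, and their part in its share was not tested. As shares of counts, with no correction for length, Fga-202 held 14.2% in pup 1 and 17.6% in pup 3. Fgb had no second transcript. A retained intron form of Fgl1, 3907 nt long with no coding annotation, held 0.19% of Fgl1 TPM in pup 1 and 0.15% in pup 3, from 215 expected counts in pup 1 and 180 in pup 3. Fgl1 was therefore read almost wholly as its coding transcript of 1120 nt, which codes for 314 residues.

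For scale, 48 genes with exactly 2 listed transcripts reached 10000 expected counts in each library, Fga, Fgg and Fgl1 among them. Their isoform percent differed between the pups by a median of 1.075 points, with quartiles of 0.128 and 6.37. The differences for Fga and Fgg lie between those quartiles, and that of Fgl1, 0.04 points, lies below the lower one.

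**Figure D3:**
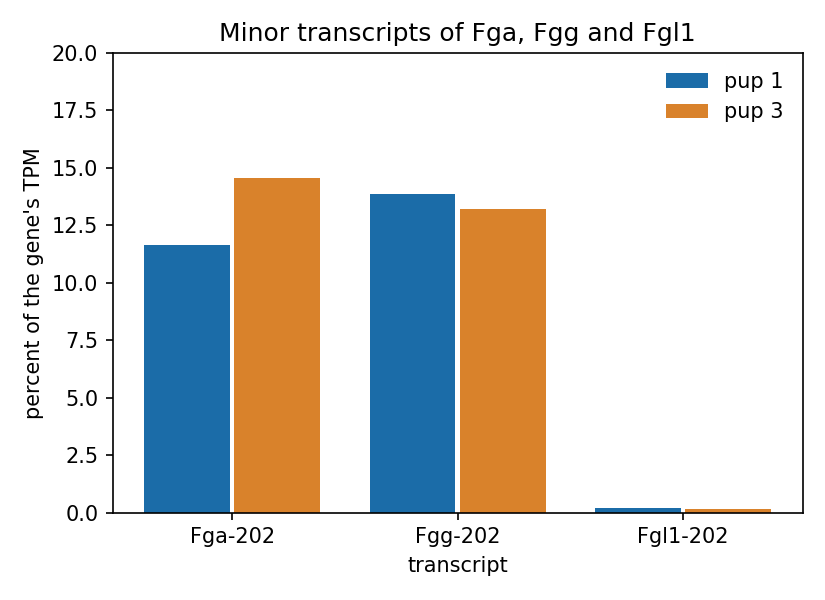
Percent of each gene's TPM held by its minor transcript in both libraries. Fga-202 and Fgg-202 lie between 11.6 and 14.6%, and the retained intron form of Fgl1 is under 1%.

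Between the pups the members differed less than most genes but much as genes of their own abundance did. Ratios are pup 1 over pup 3 on log2(TPM + 1), a scale that understates differences of low genes. They were 0.02 for Fga, 0.48 for Fgb, 0.63 for Fgg and -0.59 for Fgl1. As linear folds these are 1.02, 1.40, 1.55 and 0.665. None of the 4 members was past 2-fold, against 67.6% of the 8120 genes whose expected counts averaged 10 or more. Of the 103 genes averaging 1000 TPM or more, which include the chains, 14.6% were past 2-fold and the median absolute log2 ratio was 0.45. Fga had a smaller difference than all but 5 of these genes, Fgb lay near the median, above 53 of them, and Fgg lay above 66. Of the 376 genes with a mean of 300 to 3000 TPM, 21% were past 2-fold, and Fgl1 lay above 207 of them. All 4 members were detected at 1 TPM or more in both libraries, as were 46.3% of the 7678 genes detected in either.

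**Figure D4:**
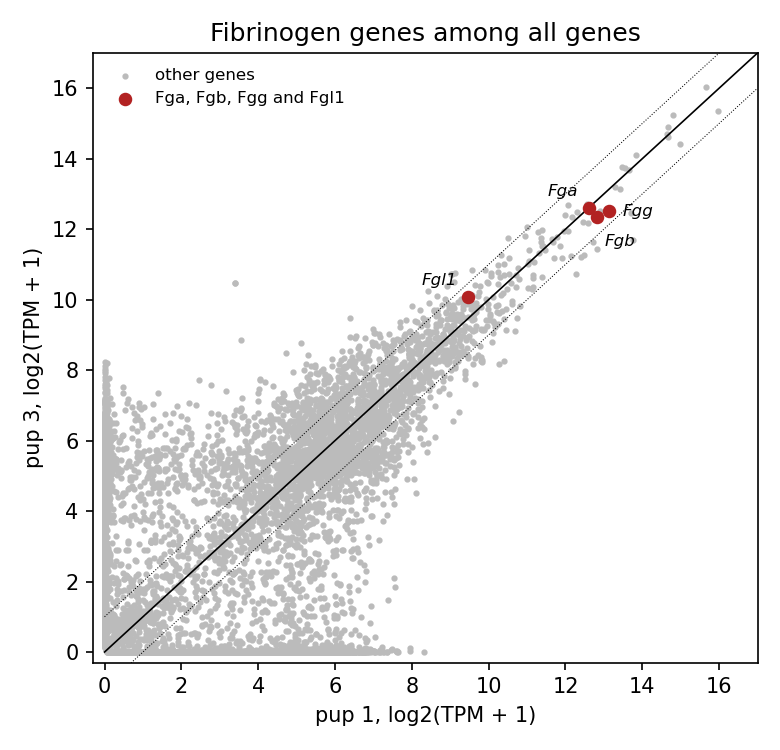
Levels in pup 1 and pup 3 (log2(TPM + 1)) of all named genes whose expected counts averaged 10 or more, with the fibrinogen genes in red; the solid line marks equal levels and the dotted lines a 2-fold difference. The 4 members lie inside the dotted lines.

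How far the pups differ depends on the scaling. Scaled by edgeR TMM factors, the log2 ratios were 0.16 for Fga, 0.63 for Fgb, 0.78 for Fgg and -0.44 for Fgl1. Scaled by spike-in totals they were -0.30 for Fga, 0.17 for Fgb, 0.32 for Fgg and -0.90 for Fgl1, so the sign of Fga turned. Genes of at least 100 TPM shifted by a median of 0.15 with TMM factors and -0.31 with spike-in totals. The other 3 members kept their direction under both scalings and under DESeq2 size factors.

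Depth and cell type markers also differed between the libraries. Pup 1 had 56959836 expected counts and pup 3 had 35973980, of which spike-ins took 3.76% in pup 1 and 3.28% in pup 3. The 2 libraries are not 1 library deposited again: a chi-square of their read counts over genes was 1871 per degree of freedom, a value that sets the difference against read-counting error only. All 12 hepatocyte markers were detected in both libraries, and their summed level was 15.3% of TPM in pup 1 and 12.5% in pup 3. Trf, with 64244 TPM in pup 1 against 42243 TPM in pup 3, and Ahsg, with 32190 TPM in pup 1 against 21893 TPM in pup 3, made that gap, while Alb and Afp were higher in pup 3. Of 8 erythroid markers 7 were detected in both, with Epb42 at 0 counts in pup 3, and their sum was 13.3% in pup 1 and 16.4% in pup 3. The 7 neutrophil markers, all detected in both, summed to 0.632% in pup 1 and 0.909% in pup 3, a gap made by S100a8 and S100a9, while Ngp, Ltf, Elane and Mpo were higher in pup 1. Of 9 macrophage markers 6 were detected in both, with C1qc, Vsig4 and Adgre1 at 0 counts in pup 1, and they summed to 0.0699% in pup 1 and 0.106% in pup 3. Of 10 megakaryocyte and platelet markers 5 were detected in either library, 3 of them in both. Gp1ba, Gp5, Gp6 and Treml1 had 0 counts in both libraries and Gp1bb had 0 in pup 1. The sum of the 10 was 0.0677% in pup 1 and 0.119% in pup 3. Of 7 endothelial markers 4 were detected in both. Kdr had 0 counts in pup 1, while in pup 3 Clec4g had 0 counts and Lyve1 had 1 count. The 7 summed to 0.0335% in pup 1 and 0.0170% in pup 3. Of 7 stellate and mesenchymal markers 3 were detected in both. Reln had 0 counts in pup 1, while in pup 3 Col1a2 and Des had 1 count each and Lrat had 2 counts. The 7 summed to 0.0373% in pup 1 and 0.0226% in pup 3. The median log2 ratio, pup 1 over pup 3, was 0.03 for the hepatocyte markers, -0.09 for erythroid, 0.05 for neutrophil, -0.59 for macrophage, -1.88 for megakaryocyte and platelet, 0.11 for endothelial and 2.03 for stellate and mesenchymal markers, so that of the neutrophil markers had the opposite sign to their sum. With libraries at 0 counts set to 3 counts, the megakaryocyte and platelet median was -3.58. The part of these differences in the members' values was not tested, and in tissue RNA fewer cells of a type and less RNA per cell cannot be told apart.

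On chromosome 3 the fibrinogen genes stood far above their surroundings. Fgg, Fga and Fgb took places 1, 2 and 3 of 2149 listed genes of the chromosome by mean TPM and held 43.3% of its TPM in pup 1 and 34.2% in pup 3 (mean 38.8 ± 6.45%). Plrg1, a splicing factor gene next to Fgb, had 2.77 TPM in pup 1 and 0 counts in pup 3. Lrat, which encodes the retinol-esterifying enzyme of stellate cells, had 20.5 TPM in pup 1 against 0.0106 TPM in pup 3. Rbm46, Rbm46os, Gm22038, Gm10710 and Dchs2 had 0 counts in both libraries, and Gm43348 and Gm30043, annotated in M21, had no row in the tables. The lincRNA Gm30097 runs on the minus strand, and its first exon overlaps exon 3 of Fgg. It had 10.2 TPM in pup 1 against 8.45 TPM in pup 3, from 148 expected counts in pup 1 and 84.2 in pup 3. No source used here states the strand setting of the counting, so its reads cannot be told apart from those of Fgg.

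**Figure D5:**
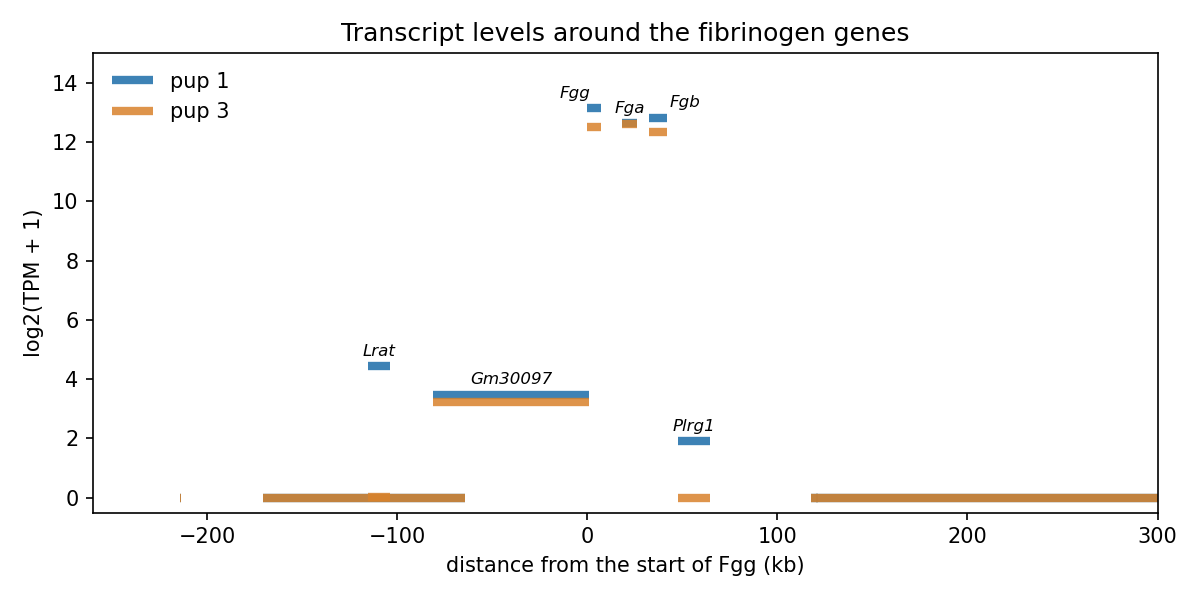
Levels (log2(TPM + 1)) in both libraries of the genes listed within 250 kb of the fibrinogen genes, each drawn over its length by distance from the start of Fgg (kb). Fgg, Fga and Fgb lie above 12, and every other gene of the window lies below 5.

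Around Fgl1 on chromosome 8 the contrast was smaller. Fgl1 took place 4 of 1733 listed genes of the chromosome and held 2.81% of its TPM in pup 1 and 4.10% in pup 3. Frg1 had 41.6 TPM in pup 1 against 95.3 TPM in pup 3, and Asah1, the acid ceramidase gene, had 29.9 TPM in pup 1 against 37.1 TPM in pup 3. Mtus1 had 20.5 TPM and Pcm1, a centriolar satellite gene, 10.8 TPM in pup 1, and both had 0 counts in pup 3. Pdgfrl, B430010I23Rik, Gm16192, Gm16193 and Gm16348 had 0 counts in both.

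By distance on log2(TPM + 1) over the 2 libraries, the protein-coding genes most like each member in level were as follows. Nearest to Fga were Kng1, the kininogen gene (6076 TPM in pup 1 against 6764 TPM in pup 3, distance 0.13), the mitochondrially encoded mt-Atp8 (distance 0.28) and Fgb (distance 0.33). Nearest to both Fgb and Fgg was mt-Atp8, with 7622 TPM in pup 1 against 5854 TPM in pup 3, followed by the other chains at distances of 0.33 to 0.53. Nearest to Fgl1 were Hpd, an enzyme gene of tyrosine breakdown (764 TPM in pup 1 against 1121 TPM in pup 3, distance 0.12), Eno1 (distance 0.17) and Atp5g1 (distance 0.18).

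Other genes with a fibrinogen-like domain were sparse. Of the 18 listed, 12 were detected in neither library. Of the 6 detected in either, 4 were in both and 2 in 1. The background over all genes detected in either was 46.3% in both and 53.7% in 1. Fcna, a lectin of the complement system, had 62.7 TPM in pup 1 against 189 TPM in pup 3, Angptl4, an inhibitor of lipoprotein lipase, 113 TPM in pup 1 against 53.2 TPM in pup 3, and Tnc, a matrix protein, 16.4 TPM in pup 1 against 12.8 TPM in pup 3. Fcnb had 44.3 TPM in pup 1 and 0 counts in pup 3. Fgl2 had 0 counts in both. By read-counting error alone a count of 0 allows up to 3 counts, which come to 0.0547 CPM in pup 1 and 0.0862 CPM in pup 3. That limit does not cover RNA lost while the libraries were made, so the level of Fgl2 in the liver can be higher. Of the 6 with an average of 10 expected counts or more, 3 were at least 2-fold higher in pup 1 (background 34.5%), 1 in pup 3 (background 33.1%) and 2 were within 2-fold. Fgl1 stood above every other listed gene of the family apart from the chains in both libraries.

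The machinery that folds and exports secreted chains was broadly present. Of 19 assembly and secretion genes, 1 was detected in neither library. Of the 18 detected in either, 15 were in both and 3 in 1. Over all genes detected in either library, 46.3% were in both and 53.7% in 1. P4hb, which encodes protein disulfide isomerase, had 523 TPM in pup 1 against 755 TPM in pup 3, and the chaperone Hspa5 had 567 TPM in pup 1 against 689 TPM in pup 3. Pdia6, another disulfide isomerase, had 292 TPM in pup 1 against 221 TPM in pup 3, and calreticulin (Calr) 204 TPM in pup 1 against 269 TPM in pup 3. Of the 18 genes with enough counts, 5 were at least 2-fold higher in pup 1 (34.5% of all genes), 2 in pup 3 (33.1%) and 11 were within 2-fold. Together the list held 0.268% of TPM in pup 1 and 0.324% in pup 3, whereas its median log2 ratio, pup 1 over pup 3, was positive at 0.17.

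Of 16 genes that act in fibrin formation and crosslinking, 2 were detected in neither library. Of the 14 detected in either, 9 were in both and 5 in 1. Over all genes detected in either library, 46.3% were in both and 53.7% in 1. Serpinc1, which encodes the thrombin inhibitor antithrombin, had 2704 TPM in pup 1 against 4047 TPM in pup 3. F2, which encodes prothrombin, had 1533 TPM in pup 1 against 1411 TPM in pup 3, Proc, the protein C gene, 774 TPM in pup 1 against 289 TPM in pup 3, and F10, the factor X gene, 404 TPM in pup 1 against 396 TPM in pup 3. The subunits of factor XIII, which crosslinks fibrin, were lower. F13b had 87.5 TPM in pup 1 against 113 TPM in pup 3, and F13a1 had 29.5 TPM in pup 1 and 0 counts in pup 3. Those in neither library were F3, which encodes tissue factor, at 0 counts in both, and Thbd, with 1 count in pup 1. Of 14 compared, 6 were at least 2-fold higher in pup 1 (34.5% of all genes), 1 in pup 3 (33.1% of all genes) and 7 within 2-fold.

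In the fibrinolysis list, genes of hepatocyte proteins were present and those of plasminogen activators were not detected. Plg, which encodes plasminogen, had 878 TPM in pup 1 against 1334 TPM in pup 3. Serpinf2, the gene of the plasmin inhibitor α2-antiplasmin, had 1350 TPM in pup 1 against 703 TPM in pup 3, Hrg 892 TPM in pup 1 against 303 TPM in pup 3, and Cpb2, the gene of a carboxypeptidase that protects fibrin, 304 TPM in pup 1 against 332 TPM in pup 3. Plat, Plau and Plaur had 0 counts in both libraries. Of the 12 genes 7 were detected in either library, 6 of them in both, against 46.3% of all genes detected in either. Of 7 compared 2 were at least 2-fold higher in pup 1 (34.5% of all genes), 0 in pup 3 (33.1%) and 5 within 2-fold.

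Receptors and partners of fibrinogen were seen mostly at low levels. Of 15 genes 4 were detected in neither library. Of the 11 detected in either, 7 were in both and 4 in 1. Over all genes detected in either library, 46.3% were in both and 53.7% in 1. Of 11 compared 2 were at least 2-fold higher in pup 1 (34.5% of all genes), 5 in pup 3 (33.1%) and 4 within 2-fold. Besides albumin, the leading members were fibronectin (Fn1), with 446 TPM in pup 1 against 521 TPM in pup 3, Icam1, with 77.6 TPM in pup 1 against 47.7 TPM in pup 3, and integrin β1 (Itgb1), with 34.4 TPM in pup 1 against 37.6 TPM in pup 3. The genes of the platelet fibrinogen receptor were each detected in 1 library, as were 53.7% of all genes detected in either. Itga2b had 1 count in pup 1 against 55.5 TPM in pup 3, and Itgb3 had 19.5 TPM in pup 1 and 0 counts in pup 3. Lag3, the receptor of Fgl1, had 0 counts in both.

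Genes of signals known to act on fibrinogen genes in adult liver were partly detected. Of 14 genes listed under interleukin 6 and glucocorticoid signalling, 8 were detected in neither library. The list also holds Il1b and Il1r1, which are genes of interleukin 1 signalling. Of the 6 detected in either, 4 were in both and 2 in 1, against 46.3% in both over all genes detected in either. The shared receptor chain Il6st had 35.02 TPM in pup 1 against 39.7 TPM in pup 3, the kinase Jak1 44.6 TPM in pup 1 against 87.9 TPM in pup 3, and Il1r1 17.4 TPM in pup 1 against 54.5 TPM in pup 3. Stat3, the transcription factor of the pathway, had 10.5 TPM in pup 1 against 3.32 TPM in pup 3. Nr3c1, the glucocorticoid receptor gene, had 61.5 TPM in pup 1 and 0 counts in pup 3. Il6, Il6ra and Socs3, an early target of the pathway, had 0 counts in both. Of 6 compared 2 were at least 2-fold higher in pup 1 (34.5% of all genes), 2 in pup 3 (33.1%) and 2 within 2-fold. Of 13 transcription factors known from fibrinogen promoters, 1 was detected in both, namely Hnf4a with 3.45 TPM in pup 1 against 4.56 TPM in pup 3. Of the 7 detected in either library, the other 6 were in 1, against 53.7% of all genes detected in either. Among these 6 were Cebpa with 32.5 TPM and Foxa3 with 26.5 TPM in pup 1. Usf1 with 55.5 TPM and Usf2 with 59.7 TPM in pup 3 were also among them. The remaining 6 of the 13 reached 1 TPM in neither library. Of 7 compared 2 were at least 2-fold higher in pup 1 (34.5% of all genes), 3 in pup 3 (33.1%) and 2 within 2-fold.

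Some acute phase genes were abundant beside fibrinogen, and others were at 0 counts. Of 15 acute phase genes 6 were detected in neither library. Of the 9 detected in either, 8 were in both and 1 in 1. Over all genes detected in either library, 46.3% were in both and 53.7% in 1. Haptoglobin (Hp) had 4297 TPM in pup 1 against 3952 TPM in pup 3, serum amyloid P (Apcs) 3262 TPM in pup 1 against 3156 TPM in pup 3, hemopexin (Hpx) 1490 TPM in pup 1 against 1693 TPM in pup 3, and Itih4 510 TPM in pup 1 against 566 TPM in pup 3. Saa1, Saa2, Saa3, Orm1, Orm2 and Orm3 had 0 counts in both. The 3 chains were each above Hp, the highest of these genes, in both libraries. Of 9 compared, 0 were at least 2-fold higher in pup 1 (34.5% of all genes), 3 in pup 3 (33.1%) and 6 within 2-fold. All 17 abundant plasma protein genes were detected in both, against 46.3% of all genes detected in either. They were led by transferrin (Trf), with 64244 TPM in pup 1 against 42243 TPM in pup 3. Of the 17, 4 were at least 2-fold higher in pup 1 (34.5% of all genes), 1 in pup 3 (33.1%) and 12 within 2-fold.

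The median log2 ratio of these lists, pup 1 over pup 3, was 0.84 for the fibrinogen-like family, 0.17 for assembly and secretion, 0.55 for fibrin formation and 0.08 for fibrinolysis. It was -0.26 for receptors and partners, -0.57 for interleukin 6 and glucocorticoid signalling, -0.32 for promoter regulators, -0.15 for acute phase genes and 0.05 for abundant plasma proteins. Over all 8120 genes it was 0.04. With libraries at 0 counts set to 3 counts and no pseudocount, the medians of these lists stayed within 0.1 of these values, with the largest move for promoter regulators, to -0.40, and the median over 8057 genes was 0.07.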

How the data were processed

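RNA of 2 newborn mouse livers was measured in 1 library each. Per the notes deposited with each library, values refer to mm10 with GENCODE M4 genes and derive from a transcriptome alignment, and no aligner or quantifier is named in the sources used here. The authors deposited expected counts (estimated reads, which need not be whole), TPM, FPKM, isoform percent, and a posterior SD and credibility bounds, treated as a score. FPKM was not used. Effective length in the deposited tables is 99 nt below length. Names and coordinates came from GENCODE M21, which matched 42462 of 43346 Ensembl identifiers (98%). Spike-ins (97) were removed and TPM rescaled to 1000000. Detection means 1 TPM or more, ratios used a pseudocount of 1, and compared genes averaged 10 or more expected counts. Both libraries form 1 group, so no count model was used for testing. Arithmetic of ratios was checked on simulated counts.

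The 4 members and the 16 gene lists were chosen with earlier results of these data known. Named are the members, their transcripts, up to 4 leading genes per list, the 3 genes nearest in level and genes within 250 kb, and further list members were named after their values were seen. A few list members are not reported here. Promoter windows came from RefSeq and matched 3 of the 4 members. Alternatives covered other units, lengths, thresholds, pseudocounts, filters, single libraries and scaling by edgeR 4.0.16 TMM factors, DESeq2 1.42.0 size factors, each fed expected counts rounded to whole numbers, and by totals of the spike-ins. The shorter Fgb and the coding lengths were added after the data were seen. Software was R 4.3.3 and Python 3.11.15 with scipy 1.17.1, pandas 2.3.3, numpy 2.4.6 and matplotlib 3.10.9.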

Additional observations from a re-analysis of the deposited data

How the results depend on the processing

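Levels of Fgb, Fgg and Fgl1 and the summed share moved by less than 1 SD with spike-ins kept, with posterior mean TPM and with rescaling over protein-coding genes. Fga, whose SD is small, had 5886 TPM with spike-ins kept, 6172 TPM as posterior mean and 6698 TPM over protein-coding genes. Ending Fgb at the RefSeq end, with all counts kept, gave it at most 14155 TPM and the 3 chains at most 2.78% of TPM. That setting moved the ratio of Fga to Fgb to 0.451 and of Fgg to Fgb to 0.517. These ratios were 0.493 and 0.574 with coding lengths and 0.576 and 0.516 from counts with no division by length, where Fga to Fgg was 1.13. With the longest coding transcript Fga to Fgb was 0.859, Fgg to Fgb 1.17 and Fga to Fgg 0.745; a different length is what changed them. The log2 ratio between the pups turned for Fga, to -0.30, with spike-in totals; the cause was not tested. Of genes that reached 100 expected counts in each library, 42.9% were past 2-fold, fewer by a filter that leaves out genes missing from 1 library. Each library alone gave 6221 to 6318 TPM for Fga, 5155 to 7199 for Fgb, 5843 to 9051 for Fgg and 711 to 1069 for Fgl1, a summed share of 1.72 to 2.26%, and ratios of 0.878 to 1.21 (Fga to Fgb), 1.13 to 1.26 (Fgg to Fgb) and 0.698 to 1.06 (Fga to Fgg). No paired analysis was possible because there is 1 group. Detection at 0.1 or 10 TPM in place of 1 moved the count in both libraries by over 1.5 times in 1 and 3 of 16 lists. With 2 libraries of so little RNA, a gene at 0 counts is not shown to be absent.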
